A study of Sus scrofa with 7 samples.

Results

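A small set of genes was read well in the heart of at least 1 pig and hardly at all in the heart of another. A gene entered the set when its normalized read count was 50 or more in at least 1 of 7 libraries and 2 or less in at least 1 other. Of 20638 gene symbols in the deposited table, 17 met both conditions. They were 0.121% of the 14088 genes that reached 50 in any library, and 12873 of those reached 50 in every library. The members were chosen by these same values, so their spread between hearts is given here as a description, without a test of that spread.

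RNA of anteromidventricular heart muscle from male farm pigs was sequenced 14 weeks after an infarction caused at the left circumflex coronary artery (LCX). Every pig had the infarction and every pig received AAV5, an adeno-associated virus used to carry a gene into tissue. The vector held human S100A1, a calcium-binding protein that acts in heart muscle, in 4 pigs (label S100a1). In the 3 control pigs (label hrLuc) it held the reporter luciferase. Each title names a separate pig. Age, breed and the vector's promoter were not given in the sources used here, and no pig without vector or without infarction was analysed here. Values below are listed by replicate, 1 to 3 for hrLuc and then 1 to 4 for S100a1.

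The set included genes of 3 families best known from other tissues. Olfactory receptors are odour sensors of the nasal lining, and their genes lie in tight clusters of similar copies. Immunoglobulin heavy chain variable segments are joined into antibody genes in B cells, so each antibody-producing clone transcribes its own choice. NLRP genes encode proteins with a nucleotide-binding domain and a pyrin domain, and several are best known from oocytes and early embryos.

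The libraries held 28651643 to 38376242 reads in the transcript rows kept, 1 per gene. A normalized count of 2 or less stood for 0, 1 or 2 reads, since 1 read was worth 0.824 to 1.14 units. A value of 0 allows up to 3 reads, worth 2.47 to 3.41 units, and this limit covers counting error only. The number of genes at 2 or less was similar across libraries, from 3513 to 3815, as was the number at 50 or more, from 13390 to 13568. The labelled tissue was checked with 11 measured cardiomyocyte genes, whose summed level was 4614447 to 6082406, and none of them was at 0. S100A1 itself, counted as the pig gene, was at 7461, 6568 and 9125 in hrLuc and 5950, 6804, 6548 and 4429 in S100a1 libraries (log2 fold change -0.39 ± 0.16 SE, adjusted p = 0.577 by limma). Whether that row also counted reads of the human vector sequence is unknown, so this row does not check the labels.

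**Figure D1:**
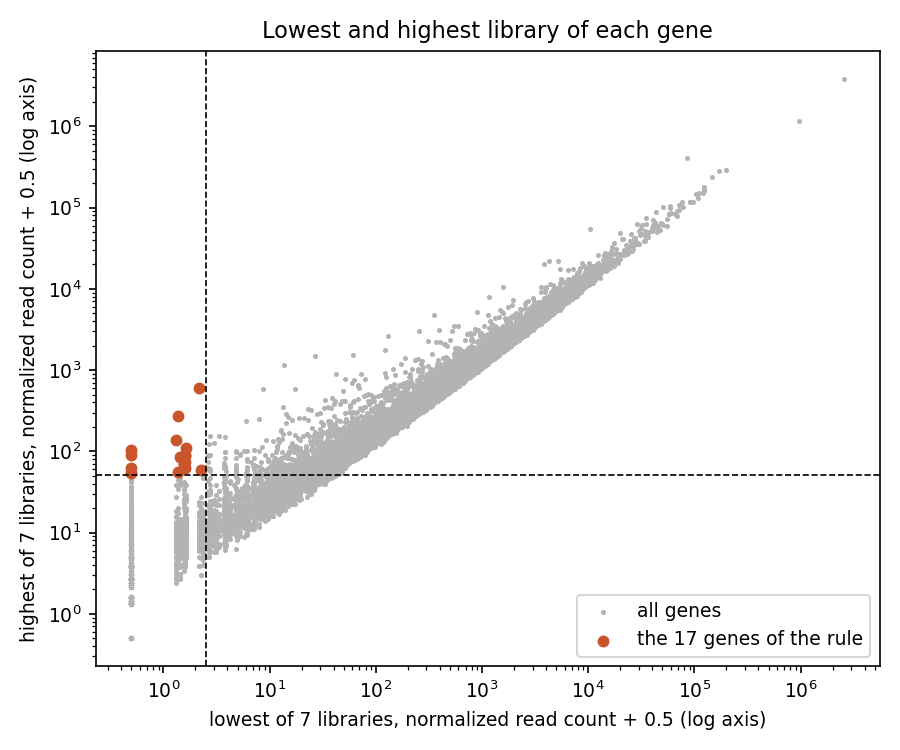
Lowest against highest normalized read count of each gene over the 7 libraries, with 0.5 added to both, on log axes. Dashed lines mark 2 and 50. The 17 genes of the set (orange) lie in the upper left corner bounded by the lines, and other genes (grey) lie directly outside both lines.

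At the limits of the rule, no gene of the set divided the hearts by vector. In 0 of 17 genes were all libraries of one label at 2 or less and all of the other at 50 or more. Libraries at 2 or less were found in S100a1 alone for 8 genes, in hrLuc alone for 4 and in both labels for 5. Libraries at 50 or more were found in hrLuc alone for 9 genes, in S100a1 alone for 4 and in both for 4. For 9 of the genes a value of 50 or more occurred in 1 heart only, and for 7 a value of 2 or less occurred in 1 heart only. Of the genes at 50 or more in 1 heart only, 4 were high in hrLuc replicate 1, namely LOC100125542, LOC110258821, LOC110258825 and PLA2G2D. Another 3 were high in S100a1 replicate 3, namely ARL14EPL, TBX19 and LOC110256079. BHLHE23 was high in hrLuc replicate 3 and LOC100516511 in S100a1 replicate 1.

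The genes of the set at 50 or more numbered 8, 4 and 8 in the hrLuc hearts. They numbered 4, 2, 5 and 2 in the S100a1 hearts. The genes at 2 or less numbered 5, 4 and 2 in hrLuc and 6, 5, 6 and 6 in S100a1. Every heart held some of these genes and lacked others.

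**Figure D2:**
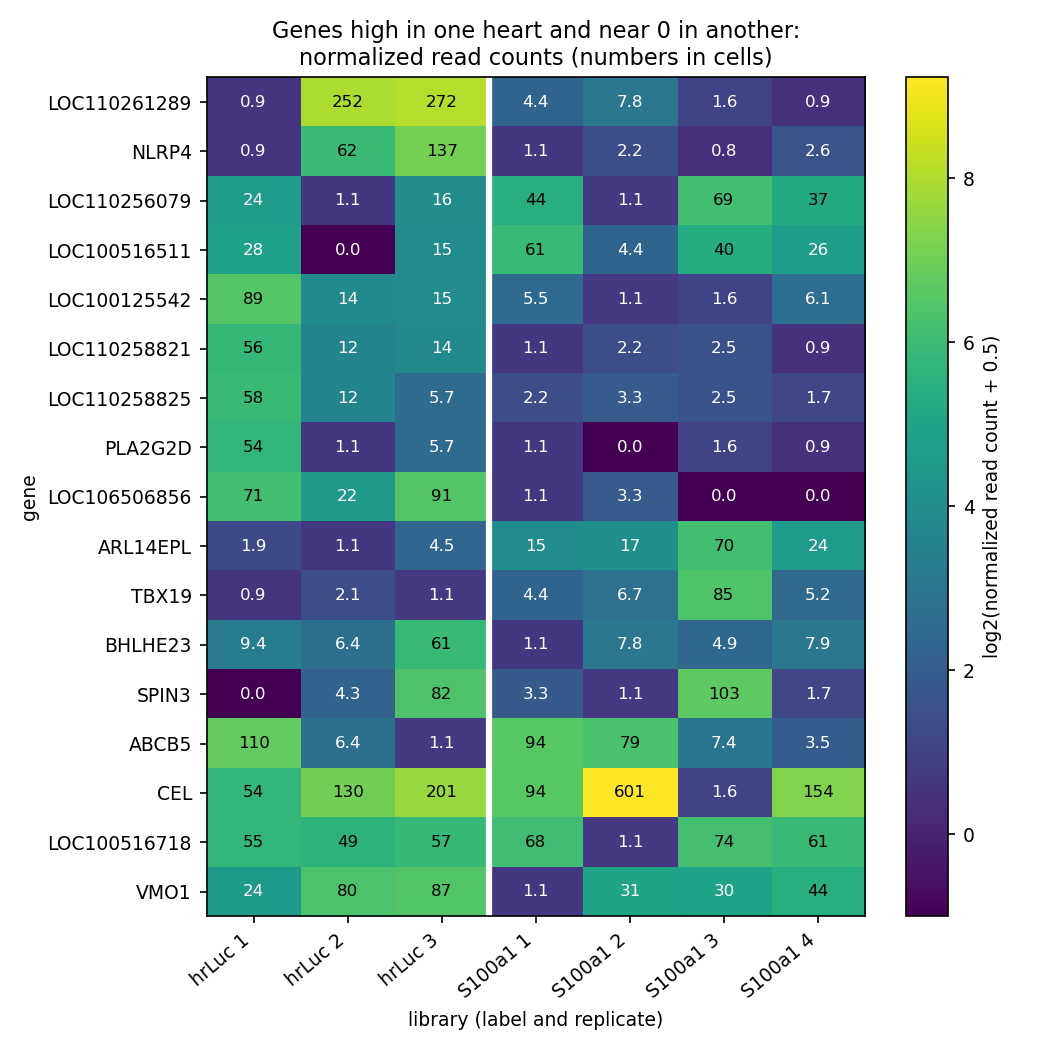
Normalized read counts of the 17 genes in the 7 libraries, printed in each cell and coloured by log2(count + 0.5), with hrLuc left and S100a1 right of the white line. Bright cells fall in different columns from row to row. The row of LOC106506856 comes closest to being bright left of the line and dark right of it. This gene was at 22.5 or more in hrLuc and at 3.33 or less in S100a1.

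All 17 genes are annotated as protein coding. Of these, 9 carried a gene name and 8 a placeholder name beginning with LOC, which is 47.1% of the set against 19.4% of all genes and 6.93% of the genes that reached 50 in any library. The set had 1 transcript row for 76.5% of its genes, against 51.0% of all genes and 39.6% of those reaching 50. On sequences not placed on a chromosome of the genome build Sscrofa11.1 lay 3 of 17 genes (17.6%), against 5.33% of all genes and 1.59% of those reaching 50. By annotated name, 2 genes were olfactory receptors, 1 was an immunoglobulin segment, 1 a zinc finger gene and 3 uncharacterized loci. The other 10 fell in none of the classes searched, and no haemoglobin, keratin, histone, ribosomal protein or major histocompatibility gene was in the set. Of the 23 lists of cell type markers and responses, 0 contained a gene of the set.

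NLRP4 and its nearest neighbours on the chromosome were high in the same hearts. NLRP4 (chromosome 6, 60233209 to 60272247) was at 0.941, 62.0 and 137 in hrLuc and at 1.09, 2.22, 0.824 and 2.62 in S100a1. The 2 hearts that held it were both controls, and the third control heart was as low as the S100a1 hearts. Within 1 Mb of NLRP4 the table had 6 NLRP genes including NLRP4, of which 5 reached 10 in some library. In 5 of those 5 genes, hrLuc replicates 2 and 3 were both above every other library. This pair of hearts was picked after the values were seen, and the 5 include NLRP4 itself.

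Next to NLRP4 on one side, NLRP11 was at 5.65, 119 and 236 in hrLuc and at 5.46, 5.56, 6.59 and 7.86 in S100a1. On the other side, NLRP13 was at 5.65, 56.7 and 101 against 10.9, 6.67, 9.06 and 5.24, and NLRP8 at 0.941, 16.0 and 43.2 against 0, 2.22, 0 and 0. All 3 had the same 2 control hearts on top, and neither NLRP11 nor NLRP13 fell to the limit of 2 that the set required. NLRP5, which is known as a maternal gene of the oocyte, showed little of this, at 38.6, 74.8 and 84.1 in hrLuc and 53.5, 30.01, 70.0 and 58.5 in S100a1. NLRP9 was near 0 throughout, with 0.941 in hrLuc replicate 1 and 0 elsewhere. These genes are similar to each other in sequence, and the handling of reads shared between copies is not known.

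**Figure D3:**
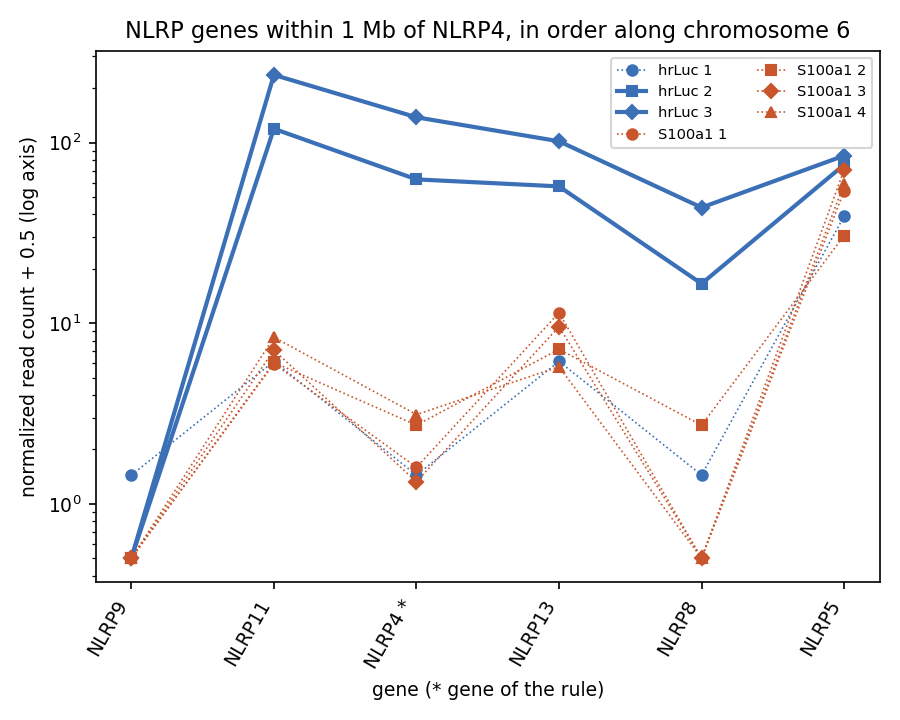
Normalized read count + 0.5 (log axis) of the 6 NLRP genes within 1 Mb of NLRP4, in chromosome order, with hrLuc in blue and S100a1 in orange. The solid lines of hrLuc replicates 2 and 3 lie far above the other 5 libraries from NLRP11 to NLRP8 and close to them at NLRP5 and NLRP9.

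The zinc finger gene of the set had the same split of hearts. LOC110261289 (zinc finger protein 160-like, chromosome 6, 57421586 to 57442325) was at 0.941, 252 and 272 in hrLuc and at 4.37, 7.78, 1.65 and 0.873 in S100a1. Zinc finger proteins of this kind bind DNA. It lies 2.79 Mb from NLRP4. Of the 110 genes of the table between them, 84 reached 10 in some library, and hrLuc replicates 2 and 3 were both above all other libraries in 4 of those 84. These 4 include NLRP11, given above, and nothing is read from their number. The 7 measured neighbours of LOC110261289 within 250 kb differed less than 4-fold between the highest and lowest library. Over all genes reaching 50, the same 2 hearts stood at least 4-fold above the rest in NLRP4, NLRP11, NLRP13, LOC110261289 and VWC2L, a gene on chromosome 15. VWC2L was at 16.0, 1154 and 771 in hrLuc and at 30.6, 24.5, 13.2 and 17.5 in S100a1.

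The olfactory receptor genes of the set belonged to a run of receptors on chromosome 12 that was low in 1 heart of each label. LOC110256079 (olfactory receptor 1G1-like, 49127440 to 49132729) was at 24.5, 1.07 and 15.9 in hrLuc and at 43.7, 1.11, 69.2 and 36.7 in S100a1. LOC100516511 (olfactory receptor 1A1, 49145471 to 49147768) was at 28.2, 0 and 14.8 in hrLuc and at 61.2, 4.45, 39.5 and 26.2 in S100a1. In both genes hrLuc replicate 2 and S100a1 replicate 2 were the lowest, and the labels overlapped.

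Within 1 Mb of LOC110256079 the table had 22 olfactory receptor genes, of which 21 reached 10 in some library. In 17 of those 21, hrLuc replicate 2 and S100a1 replicate 2 were both below the other 5 hearts. This pair of hearts was picked after the values were seen, and the 17 include the 2 genes of the set. The most abundant gene of the run, LOC100517239 (olfactory receptor 139), was at 386, 118 and 344 in hrLuc and at 526, 78.9, 732 and 782 in S100a1. Closer to the set, LOC100624795 (olfactory receptor 1D2) was at 64.0, 4.28 and 34.1 against 98.3, 7.78, 100 and 70.7. Most of the run was thus low in the same pair of hearts, and the 2 genes of the set were those that reached 50 and also fell to 2 or less. At its far end hrLuc replicate 2 left the pattern, while S100a1 replicate 2 stayed lowest or tied for lowest. There LOC110256092 (olfactory receptor-like protein DTMT) was at 16.9, 19.2 and 0 in hrLuc and 2.18, 0, 11.5 and 6.11 in S100a1. On chromosome 9, receptors were also low in S100a1 replicate 2 alone. LOC100515441 (olfactory receptor 52A5-like) was at 16.7 there against 184 to 577, and LOC102158682 (olfactory receptor 52Z1-like) at 2.22 against 26.1 to 89.8.

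Of the neighbours within 250 kb that reached 10 in some library, 14 of 15 for LOC110256079 and 15 of 16 for LOC100516511 differed at least 4-fold between the highest and lowest heart, against 6.47% of 16205 genes in the whole table. The corresponding count was 3 of 6 for NLRP4, 4 of 14 for BHLHE23, 2 of 21 for VMO1 and 0 for the other 9 placed genes. The windows of the 2 receptor genes overlap, and each count includes the other gene, which the rule chose for its spread. Nothing is read from these 2 counts. Both receptor genes of the set lie within or across a long noncoding RNA locus, LOC110256084. The receptors are close copies of one another, so reads of one may be counted in another.

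**Figure D4:**
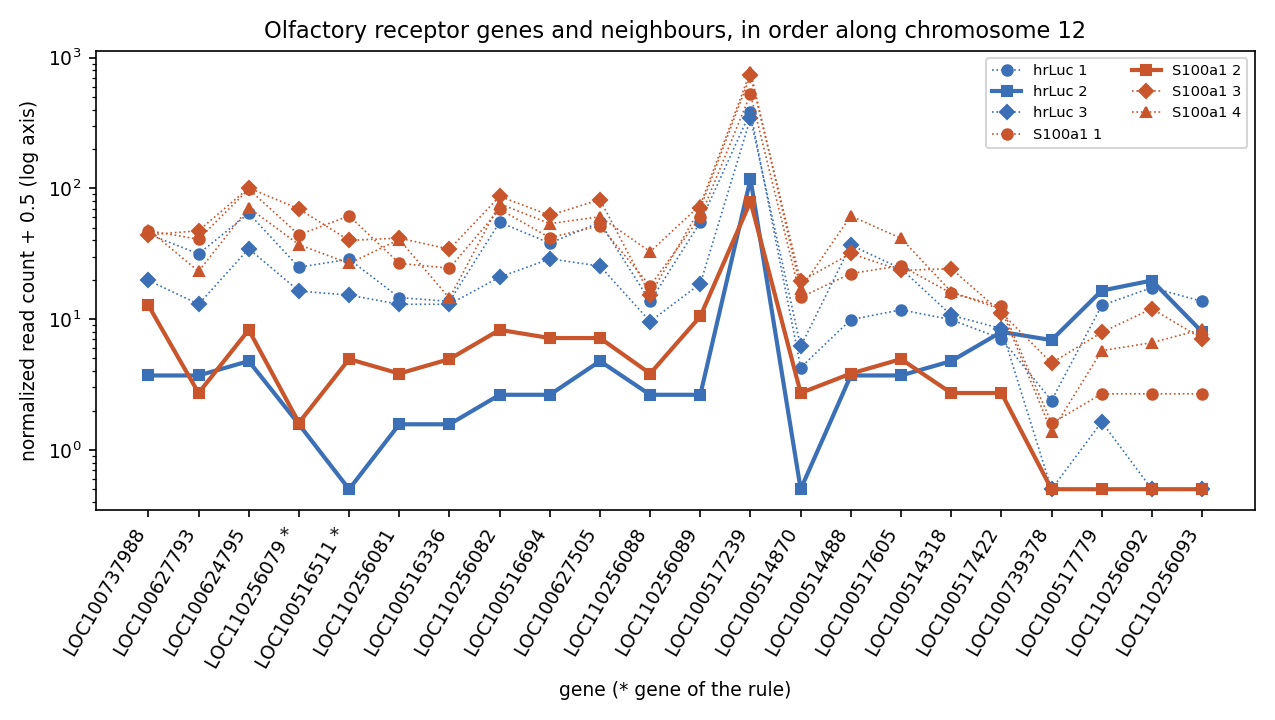
Normalized read count + 0.5 (log axis) of the 22 olfactory receptor and receptor-like genes within 1 Mb of LOC110256079, in chromosome order, with stars on the 2 genes of the set. The solid lines of hrLuc replicate 2 and S100a1 replicate 2 run below the other 5 libraries over most genes and meet or cross them at the right end.

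The genes held in hrLuc replicate 1 included an antibody segment. LOC100125542 (immunoglobulin heavy variable 3-23, unplaced sequence, 56780 to 57566) was at 89.4, 13.9 and 14.8 in hrLuc and at 5.46, 1.11, 1.65 and 6.11 in S100a1. Its highest value was in hrLuc replicate 1, but the other controls were also above every S100a1 heart. LOC110258821 (uncharacterized, unplaced, 122837 to 129067) was at 55.5, 11.8 and 13.6 against 1.09, 2.22, 2.47 and 0.873. LOC110258825 (uncharacterized, unplaced, 159344 to 162754) was at 58.3, 11.8 and 5.68 against 2.18, 3.33, 2.47 and 1.75. These loci thus shared an order of hearts with the antibody segment: hrLuc replicate 1 far above, the other controls next and the S100a1 hearts lowest. The annotation used here does not name the unplaced sequences, so whether the 3 loci lie on the same one is not known.

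Of the 10 genes whose annotated name mentions immunoglobulin or T cell receptor, 8 reached 10 in some library, and 7 of those were highest in hrLuc replicate 1. The 7 include LOC100125542 itself, so nothing is read from their number. The exception was RBPJ, a recombination signal binding protein and not an antibody segment. LOC100038329, a second heavy variable 3-23 copy, was at 123, 9.62 and 10.2 in hrLuc and at 2.18, 2.22, 4.12 and 4.36 in S100a1. LOC445536, another Ig heavy chain V region, was at 44.2, 10.7 and 9.09 against 1.09, 1.11, 3.29 and 0. These had the order of hearts seen in LOC100125542 and missed the set by a narrow margin. Variable segments are near copies, so reads may be divided among them.

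Markers of several immune cell types were also high in hrLuc replicate 1. Of 12 B and plasma cell markers in the table, 9 were highest in that heart. JCHAIN, the joining chain of secreted antibody, was at 335, 99.4 and 105 in hrLuc and at 92.8, 88.9, 72.5 and 79.4 in S100a1. MS4A1, the B cell antigen CD20, was at 27.3, 7.48 and 10.2 against 6.55, 5.56, 9.88 and 3.49. The other 3 markers were not highest there: TNFRSF17, a receptor of plasma cells, was lowest in that heart, at 64.0 against 68.8 to 96.2. MZB1 was at 19.8 there and reached 43.7 in S100a1 replicate 3, and FCRLA was at 13.2 there and reached 17.5 in S100a1 replicate 4. The summed level of the list was 992 to 1533 in hrLuc and 912 to 1148 in S100a1, and no marker was at 0 in all libraries. Several other immune lists were highest in the same heart, but the neutrophil list was not, at 153 there and 156 in hrLuc replicate 3. The summed T and natural killer cell list was 1699 in hrLuc replicate 1 against 685 to 1411 in the other hearts, and the interferon response list 21582 against 9802 to 14763. The macrophage list was at 11403 against 6721 to 10432, the mast cell list at 3548 against 1788 to 3038 and the major histocompatibility list at 61741 against 41843 to 57359. High sums in this heart were not confined to immune lists. The fibroblast list was at 153725 there against 85928 to 138485, and the adipocyte list at 10938 against 8275 to 10073. The cardiomyocyte list was lowest there, at 4614447, and the endothelium list was highest in hrLuc replicate 2. The part of these cells and responses in the values of the antibody segment was not tested, and in bulk tissue fewer cells of a type and less RNA per cell cannot be told apart.

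PLA2G2D (chromosome 6, 78391063 to 78397394), a secreted phospholipase A2, was at 53.6, 1.07 and 5.68 in hrLuc and at 1.09, 0, 1.65 and 0.873 in S100a1. It was at 50 or more in hrLuc replicate 1 alone and at 2 or less in 5 of the other 6 hearts. Over all genes reaching 50, hrLuc replicate 1 alone stood at least 4-fold above the rest in LOC100125542, LOC110258825, PLA2G2D, IL20RA, LOC100038329, LOC100738425 and LYZ. LYZ, which encodes lysozyme of myeloid cells, was at 259, 23.5 and 51.1 in hrLuc and at 18.6, 33.3, 23.9 and 23.6 in S100a1.

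The locus closest to a split by vector was LOC106506856 (uncharacterized, chromosome 18, 50033973 to 50042961). It was at 70.6, 22.5 and 90.9 in hrLuc, with a mean of 61.3 ± 35.1 (SD, n = 3), and at 1.09, 3.33, 0 and 0 in S100a1, with a mean of 1.11 ± 1.57 (SD, n = 4). All controls held it and all S100a1 hearts had at most a few reads, although hrLuc replicate 2 stayed below 50 and S100a1 replicate 2 above 2. It overlaps the long noncoding RNA locus LOC106506857. Its neighbours were not split this way. IGFBP1, the nearest gene on one side, was at 3.41 in hrLuc replicate 3 and at 0 in all other hearts. IGFBP3 beyond it, 24.5 kb away, was at 36.4 to 51.1 in hrLuc and 27.3 to 46.7 in S100a1. ADCY1, an adenylate cyclase 0.611 kb away, was at 49.99 to 63.1 in hrLuc and 29.5 to 77.7 in S100a1.

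In the opposite direction, ARL14EPL (ADP-ribosylation factor-like 14 effector protein-like, chromosome 2, 120194923 to 120226999) was at 1.88, 1.07 and 4.54 in hrLuc and at 15.3, 16.7, 70.0 and 24.4 in S100a1. Its means were 2.498 ± 1.82 (SD, n = 3) and 31.6 ± 25.9 (SD, n = 4). Every S100a1 heart was above every control, and S100a1 replicate 3 was far above the others of its label. Only 1 of its 4 transcript rows met the rule, the others reaching 15.6, 19.8 and 30.5. The nearest gene, LVRN, which encodes the peptidase laeverin, lies 1.20 kb away and was at 128, 192 and 176 in hrLuc and at 311, 266, 401 and 432 in S100a1. LVRN was likewise higher in all S100a1 hearts, but did not pass the test over all genes (log2 fold change 1.08 ± 0.20 SE, adjusted p = 0.368 by limma).

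TBX19 (chromosome 4, 82663121 to 82699261), a T-box factor known from pituitary corticotroph cells, was at 0.941, 2.14 and 1.14 in hrLuc and at 4.37, 6.67, 84.8 and 5.24 in S100a1. The labels did not overlap, yet only S100a1 replicate 3 held the gene at an appreciable level. Of its 5 measured neighbours within 250 kb, the 4 that reached 10 in some library differed less than 4-fold between hearts. Over all genes reaching 50, S100a1 replicate 3 alone stood at least 4-fold above the rest in TBX19, BEND4 and GABRG1, the last a receptor subunit for gamma-aminobutyric acid at 152 in that heart and 2.82 to 7.64 in the others.

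**Figure D5:**
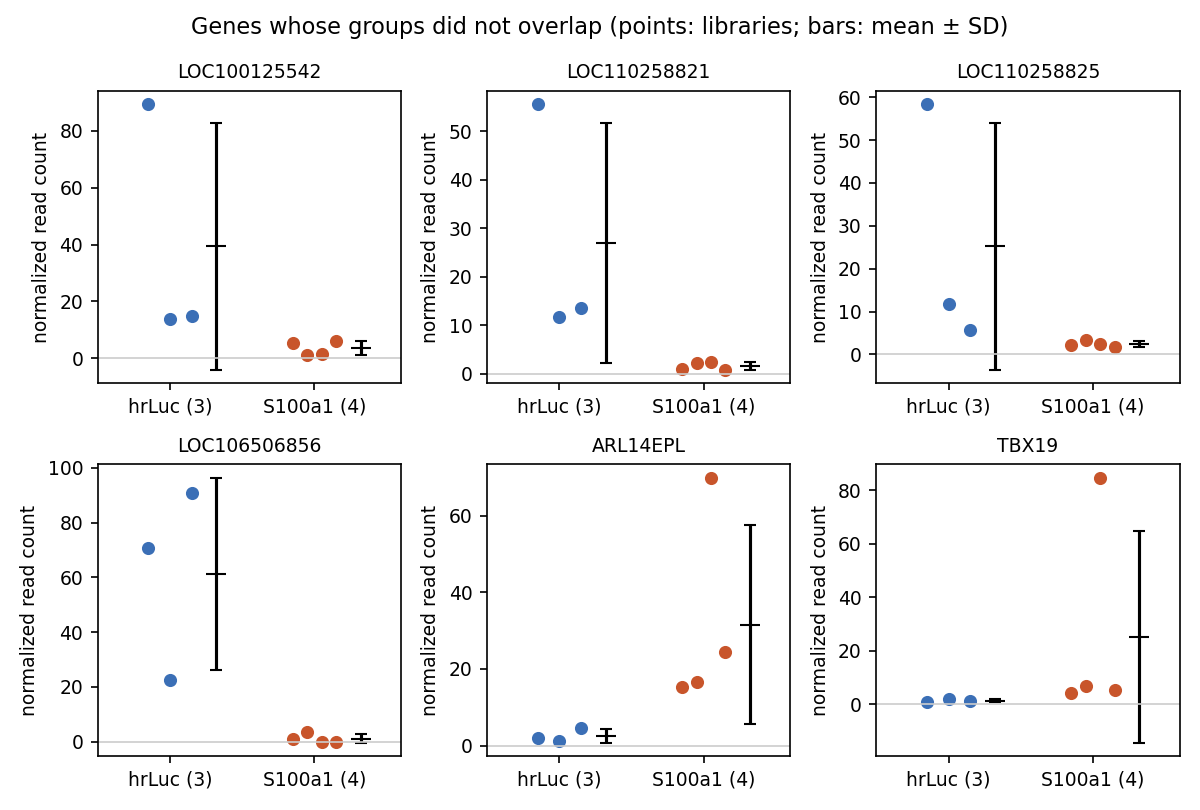
Normalized read counts of the 6 genes whose labels did not overlap, with hrLuc (n = 3) in blue and S100a1 (n = 4) in orange, points for libraries and black bars for mean ± SD. In LOC100125542, LOC110258821, LOC110258825 and TBX19 the mean of the higher label rests largely on 1 library, whereas in LOC106506856 all 3 controls lie above 20.

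The remaining factors and X-linked genes were held in isolated hearts of either label. BHLHE23 (chromosome 17, 62217583 to 62228599), a basic helix-loop-helix transcription factor, was at 9.41, 6.42 and 61.3 in hrLuc and at 1.09, 7.78, 4.94 and 7.86 in S100a1. Only hrLuc replicate 3 held it. The same heart alone stood at least 4-fold above the rest in GPNMB, KRT8 and SP7. GPNMB was at 410 there and at 41.1 to 92.5 elsewhere, and KRT8, a keratin, at 761 against 62.0 to 183. SP7, a bone cell factor, was at 82.9 there and at 10.7 to 20.1 elsewhere. The summed cartilage and bone list was not high in hrLuc replicate 3, at 2479 against 2336 to 2613 in the other hearts. SPIN3 (chromosome X, 49351952 to 49356901), of the spindlin family of histone readers, was at 0, 4.28 and 81.8 in hrLuc and at 3.28, 1.11, 103 and 1.75 in S100a1. It was held in 1 heart of each label and near 0 in the rest. Its relative SPIN2B close by did not share the split, at 46.1, 62.0 and 15.9 in hrLuc and 48.0, 52.2, 55.2 and 41.0 in S100a1, and reads of the 2 may not be fully separable.

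ABCB5 (chromosome 9, 89620783 to 89751876), a membrane transporter of the ATP-binding cassette family, was at 110, 6.42 and 1.14 in hrLuc and at 93.9, 78.9, 7.41 and 3.49 in S100a1. Here 3 hearts were at 50 or more and the other 4 at 7.41 or less, with both labels on each side. Its 10 transcript rows all met the rule, so the pattern did not depend on the row chosen. No other gene reaching 50 had a gap of 4-fold or more between the same hearts.

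Another 3 genes were lacking in 1 S100a1 heart each and present in all others. CEL (chromosome 1, 272763203 to 272770259), carboxyl ester lipase, a fat-digesting enzyme best known from the pancreas, was at 53.6, 130 and 201 in hrLuc and at 93.9, 601, 1.65 and 154 in S100a1. S100a1 replicate 3 had 2 reads of it, while S100a1 replicate 2 had the highest value of the whole set. The same heart alone lay at least 4-fold under the rest for BDNF, MKRN3 and PR39. PR39, an antimicrobial peptide of pig neutrophils, was at 3.29 there and at 75.9 to 151 in the others, and BDNF, a nerve growth factor, was at 8.24 against 105 to 580. The summed neutrophil list was not low in S100a1 replicate 3, at 145 against 127 to 156 in the other hearts.

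LOC100516718 (Purkinje cell protein 4-like protein 1, chromosome 1, 253573398 to 253587341) was at 54.6, 49.2 and 56.8 in hrLuc and at 67.7, 1.11, 74.1 and 61.1 in S100a1. Only S100a1 replicate 2 lacked it, and the other 6 hearts lay close together. Its neighbour SLC46A2, 2.38 kb away, was also lowest in that heart, at 55.6 against 112 to 158. VMO1 (vitelline membrane outer layer 1, chromosome 12, 52108973 to 52109987) was at 23.5, 80.2 and 87.5 in hrLuc and at 1.09, 31.1, 30.5 and 43.6 in S100a1. S100a1 replicate 1 alone lacked it. HBB, the beta chain of haemoglobin, was at 3.28 in that same heart and at 25.7 to 65.9 in the others.

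At the edges of the rule the set shaded into other genes. Nearest inside the lower limit were LOC110258825 with a lowest value of 1.75 and CEL with 1.65. Nearest outside were GALNT14, LOC100516694, LOC110256082 and LOC110256089 with 2.14 and LOC100038329 with 2.18, of which LOC100038329 is an antibody segment and all but GALNT14 of the rest are receptors of the chromosome 12 run. Nearest inside the upper limit were PLA2G2D with a highest value of 53.6 and LOC110258821 with 55.5, and nearest outside were IQCF3 with 49.4 and LOC102158214 with 48.1.

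Gaps between hearts were also counted without the rule's limits. Over the table, 62 genes reached 50 and had a gap of at least 4-fold somewhere in the order of the 7 hearts, measured as log2(count + 0.5). They included 16 of the 17 genes of the set, ARL14EPL being the exception. The gap set apart 1 high heart in 20 genes and 1 low heart in 19 genes. It stood at 2 high hearts in 8 genes, 3 in 6, 4 in 5 and 5 in 4. Exactly the 3 controls lay above and the 4 S100a1 hearts below in 2 of the 62, LOC106506856 and LOC110258821, and 0 genes had the reverse.

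The labels did not overlap in 6 of 17 genes, 4 lower and 2 higher in S100a1, against a background of 9.41% of the genes reaching 50 in any library (5.43% lower and 3.98% higher). Those lower in S100a1 were LOC106506856, LOC100125542, LOC110258821 and LOC110258825, and those higher were ARL14EPL and TBX19. Nothing is read from this count, because the rule asked for a wide spread in the same values. The exact two-sided permutation test over all 35 assignments of the labels gave p = 0.0286, the smallest it can give, for LOC106506856, LOC100125542, LOC110258821, LOC110258825 and ARL14EPL, and p = 0.0571 for TBX19. These p-values are not adjusted and describe genes selected for their spread.

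The limma fit took in 15652 genes, those that reached 10 in 3 or more libraries, and 10 of the 17 genes were among them. The rest, LOC110261289, NLRP4, SPIN3, TBX19, BHLHE23, LOC110258825 and PLA2G2D, were high in too few hearts. Of the 10 tested, 0 passed an adjusted p of 0.05, against 0.0128% of all tested genes (0.00639% in each direction). At an unadjusted p under 0.05 there were 4 of 10, against 8.27% of all tested genes, and edgeR called 0 of 10 (0.0127% of its genes). The 4 were LOC106506856, LOC110258821 and LOC100125542, which entered the test only through the 3 control hearts, and ARL14EPL, which entered only through the 4 S100a1 hearts. Such genes had to differ, so their number supports nothing.

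The smallest adjusted p of the 10 was that of LOC106506856, 0.246 by limma, with a log2 fold change of S100a1 over hrLuc of -5.58 ± 0.85 (SE). ARL14EPL followed with 3.30 ± 0.63 (adjusted p = 0.368 by limma), LOC110258821 with -3.38 ± 0.65 (0.386) and LOC100125542 with -2.98 ± 0.79 (0.513). The other 6 tested genes had small changes for their errors. VMO1 was at -1.78 ± 1.09, LOC100516511 at 1.99 ± 1.37, LOC110256079 at 1.26 ± 1.38, LOC100516718 at -1.02 ± 1.22, ABCB5 at 1.03 ± 1.55 and CEL at -0.77 ± 1.59. Their adjusted p-values by limma were 0.658 to 0.904. Single hearts set several of these values: without hrLuc replicate 2, LOC100516511 was at 0.19 and LOC110256079 at 0.03, and without S100a1 replicate 1, VMO1 was at -0.66. Without 1 library each, CEL, ABCB5 and LOC100516718 changed sign. The median log2 fold change over the 10 genes had no stable sign, at -0.89 with limma, 0.08 with edgeR and 0.11 with DESeq2, against -0.02 over all genes tested with limma. It was 0.51 over the 6 genes tested without hrLuc replicate 1 and 0.03 over the 7 tested without hrLuc replicate 2.

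The count model DESeq2, run on the recovered reads, called 4 of the 10 genes, 3 lower and 1 higher, against 0.573% of the genes it tested (0.229% lower and 0.344% higher). Its adjusted p was 6.25e-07 for LOC106506856, 0.00507 for LOC110258821, 0.00613 for ARL14EPL and 0.0246 for LOC100125542. These 4 genes entered the test only through the label where they were high, so their number supports nothing here either. In the authors' deposited table, 7 of the 15 genes of the set with an adjusted p were under 0.05, 6 lower and 1 higher, against 0.661% of its genes (0.328% lower and 0.333% higher). The 7 made up 5.88% of the 119 genes under 0.05 in the authors' deposited table. The set was chosen for a wide spread in the same values, so nothing is read from these shares. SPIN3 and TBX19 had no adjusted p in it.

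Beside the genes called by DESeq2 here, the authors' deposited table had NLRP4 under 0.05, with a log2 fold change of -5.31 and an adjusted p of 0.00179. It gave LOC110261289 as -5.59 with 0.0335 and LOC110258825 as -3.39 with 0.0396. In NLRP4 and LOC110261289 the difference came from hrLuc replicates 2 and 3, and hrLuc replicate 1, at 0.941 in both, lay among the S100a1 hearts. For LOC106506856 the authors' deposited table gave -5.95 with an adjusted p of 1.74e-06.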

How the data were processed

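Per the labels' protocols, libraries were made from total RNA (Qiagen kit) after ribosomal depletion (TruSeq). DESeq2 1.33.1, FastQC 0.11.8, R 4.1.2 and the build Sscrofa11.1 stand in the submitters' processing notes without their roles. Aligner, counter and strand setting were not given in the sources used here. In the file, the deposited signal is a read count per transcript row, divided by the authors by 1 size factor per library: 100% of values were whole multiples of 1 read within 0.01 read. The deposited log2 column, the deposited ratio (fold change) and the deposited p-value column hold the authors' comparison and were copied as such.

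Out of 63562 transcript rows, 1 per symbol was kept, the one of highest mean over 7 libraries. All rows matched the RefSeq annotation of Sscrofa11.1, and 16 symbols stand for more than 1 gene. The design had allowed for counts or for normalized values, and the test for the latter was used: limma 3.58.1 (R 4.3.3) with a mean-variance trend on log2(value + 0.5), genes with at least 10 in at least 3 libraries, no covariate, two-sided, Benjamini-Hochberg adjustment over 15652 genes at 0.05, with 5 residual and 3.85 prior degrees of freedom. This scale understates changes of low genes. On recovered reads edgeR 4.0.16 called 2 genes and DESeq2 1.42.0 called 90. The fit was tested on simulated counts.

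The 17 genes, the gene lists and the name classes were chosen with earlier results of these data known. Genes named with values were those past the threshold, those of the 5 smallest p with labels apart, the 20 highest of the set, the highest of each list or class, and runs of neighbours. As the set has 17 genes, all are named. Neighbouring genes and genes with the same order of hearts were chosen after their values were seen. Alternatives were other limits of the rule, row choices, filters, pseudocounts, normalizations, tools, a replicate block and each library left out. Those for the count of genes with labels apart were added after the data had been seen. Same-numbered libraries of the labels were checked for shared deviations and had correlations of -0.02 to 0.08.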

Additional observations from a re-analysis of the deposited data

Results flagged for a closer look

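In a test for a value far from the others of its label, applied to the 4 S100a1 libraries of each of the 17 genes, S100a1 replicate 3 stood out in 3 genes. SPIN3 was at 103 there, with a gap to the next library of 0.979 of the range. TBX19 was at 84.8, with a gap of 0.971 of the range. ARL14EPL was at 70.0, with a gap of 0.833 of the range. All 3 gaps exceeded the critical value of Dixon's test for 4 samples. Chance flags about 1 in 20 groups, and these genes were selected for a wide spread, so the number of flags supports nothing. The 3 hrLuc libraries are too few for this test.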

How the results depend on the processing

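The size of the set depended on its limits. The 17 genes became 69 with an upper limit of 20, 5 with 100, 4 with a lower limit of 0, 49 with 5, 29 on recovered whole reads, 11 without overlapping or unplaced genes and 13 to 16 with 1 library left out. The 9 genes at the upper limit in 1 heart only became 39, 3, 2, 29, 15 and 4 under the same changes, and 6 to 13 with 1 library left out. The 6 genes with labels apart became 8, 0, 1, 7, 7 and 2, and 4 to 8. The count of genes with one label all at the lower limit or less and the other all at the upper limit or more was 0 in each setting. The limits were moved 1 at a time, so this 0 does not cover both limits moved together. LOC106506856, at 22.5 or more in hrLuc and 3.33 or less in S100a1, met no single change.

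DESeq2 called 4 of the 10 tested genes where limma called 0. Every other fit, including a threshold of 0.10, called 0 of the genes it could test. These were 6, 7 and 7 with hrLuc replicate 1, 2 or 3 left out, 9 without S100a1 replicate 1 or 2, 9 with the lowest transcript row and 3 with the filter of 50. LOC106506856, LOC110258821 and LOC100125542 were in no fit that left out a control, so those fits say nothing of them. No pairing of libraries by number is given in the labels. With the replicate number as a block, 0 genes of the set passed, 7 had an unadjusted p under 0.05, and the genes called over the whole table went from 2 to 0, with 1011 at an unadjusted p under 0.05. Only replicate 3 correlated best with its own number. Of 190 alternative values of the 10 fold changes, 181 kept direction without a call, 4 were called and 5 reversed. With 1 library left out, ABCB5 ranged from -0.33 (without hrLuc replicate 3) to 1.86, LOC100516718 from -1.51 to 0.33 (without S100a1 replicate 2) and CEL from -1.84 to 0.87 (without S100a1 replicate 3). LOC110256079 ranged from 0.03 (without hrLuc replicate 2) to 2.49, LOC100516511 from 0.19 (without hrLuc replicate 2) to 3.11 and VMO1 from -2.38 to -0.66 (without S100a1 replicate 1). CEL also turned to 0.74 with edgeR and 0.74 with DESeq2, and the cause was not tested. Over all genes limma-voom called 0, quantile normalization 3 and median centring 1, against 2. Values of 0 to 2 reads limit all low levels.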
